A study of Homo sapiens with 11 samples.

Results

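Retained intron events were examined in derivatives of HCC78, an established cell line from a lung adenocarcinoma, in which doxycycline (dox) switched on a tagged copy of U2AF1, either wild-type (WT) or the S34F mutant. Members were the unique entries of the deposited retained intron table with at least 10 reads on the S34F side and 10 on the wild-type side. Of 5776 unique entries 5134 were members, and they lay in 2914 host genes. Of the other 642 entries, 359 were below 10 reads on both sides, 191 on the S34F side alone and 92 on the wild-type side alone. Across all 5 types of splicing event there were 92662 unique entries. Of these, 2220 that list several isoforms were left out before the same minimum was applied, and 78066 met it. Expression of the host genes was read from 9 RNA-Seq libraries. The untransduced parental cells, both dox+ groups (WT dox+ and S34F dox+) and WT dox- had 2 replicates each, and S34F dox- had 1. The line itself carried S34F in every group, since the labels give it as 32% of U2AF1 mRNA in both parental libraries, 33% in both WT dox- libraries and 28% in S34F dox-. After induction the share was 62% and 65% in the S34F dox+ replicates and 12% and 14% in the WT dox+ replicates. Each group thus held both isoforms, and so did both sides of the splicing comparison, whether or not doxycycline was present.

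Intron retention is the form of alternative splicing in which a whole intron stays in the mature transcript. Such transcripts often hold early stop codons, are often kept in the nucleus, and are well known in genes of splicing factors and their kinases. U2AF1 is the small subunit of the U2 auxiliary factor, which recognizes the AG dinucleotide at the 3′ end of an intron at the start of spliceosome assembly. S34F changes a residue in the first zinc finger of the protein, in contact with the RNA beside that AG.

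The values are percent spliced in (PSI) from Mixture of Isoforms (MISO), on a scale from 0 to 1, with 1 value for S34F and 1 for wild-type. In 5131 of the 5134 members the first isoform in the event name spanned the intron and the second ran through it, and 3 members listed the same 1-base junction for both. Introns that nearly all transcripts lose had a PSI close to 1. The 3 listed introns of ACTB, which encodes beta actin, had values of 0.95, 0.98 and 0.91 in S34F and 0.95, 0.98 and 0.92 in wild-type, and an intron of the tubulin gene TUBA1B had 1.00 on both sides. PSI is therefore read here as the share of the spliced isoform, and a lower PSI as more transcript with the intron. Coordinates are those of the event names, which give the exon bases on either side of the intron, and the submitters' processing notes name GRCh37/hg19 as the build. Values per replicate were not used here, so no PSI difference has a test or a replicate error, and the differences are descriptions of a pair of values.

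The libraries differed with doxycycline and also between replicates. Genes that reached 1 FPKM numbered 15736 to 20896 in the dox+ libraries and 13661 to 14688 in the 5 libraries without induction. Sense-intronic genes followed, with 122 to 219 in the dox+ libraries and 56 to 73 without induction. S34F dox+ replicate 2 had the most of both, 20896 and 219, against at most 17716 and 150 in the other 8 libraries. How replicates entered the PSI values is not stated, so S34F dox+ replicate 2 could not be separated there and its part was not tested. Libraries were made from total RNA, so unspliced precursors and retained introns of mature transcripts cannot be told apart. The summed FPKM of 11 lung adenocarcinoma markers was 8531 to 11572, although the surfactant gene SFTPB was only 0.25 to 2.05 and NAPSA 1.73 to 9.97, and 6 markers of blood and connective tissue cells summed to 6.17 to 20.1. FPKM of U2AF1 was 164 and 223 in S34F dox+, 278 and 299 in WT dox+, and 103 to 115 in the 5 libraries without induction.

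Among members with the most reads was an intron of DDX5, a DEAD-box RNA helicase that acts in splicing, at chr17:62496891-62498128 in the coordinates of the event table. The table lists the microRNA gene MIR3064 beside it. This intron had 11375 reads in S34F and 18229 in wild-type, and its PSI of 0.55 and 0.54 placed it among the introns present in a large share of transcripts on both sides. The mature sequences are shown because MIR3064 was the only microRNA gene listed for a member that matched the RefSeq table (GRCh38.p14). They run 5′ to 3′ with the seed, bases 2 to 8, in capitals, from the minus strand at chr17:64500775-64500797 for the 3p arm and chr17:64500817-64500837 for the 5p arm in that build.
hsa-miR-3064-3p: uUGCCACAcugcaacaccuuaca
hsa-miR-3064-5p: uCUGGCUGuuguggugugcaa
The seeds differ between the arms. A second DDX5 intron, of 215 bases, was mostly spliced, with PSI values of 0.93 (S34F) and 0.92 (wild-type).

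Most introns were spliced to a similar extent on both sides, and those that differed were more often less spliced in S34F. The median PSI was 0.71 in S34F and 0.74 in wild-type, and the median of the differences (S34F minus wild-type) was 0. A PSI of at least 0.90 on both sides was found for 1071 members, and one of at most 0.10 on both sides for 348. The PSI was at least 0.10 lower in S34F for 891 members (17.4%) and at least 0.10 higher for 675 (13.1%). Over all 5 types of event the same limits were passed by 15% (lower) and 16.2% (higher), with no test of either gap. PSI refers to another isoform in each type, so lower and higher have no common meaning across them. Among events with a mean PSI of both sides from 0.1 to 0.9, 24.7% of retained introns were lower and 18.8% higher. In the other types these shares ran from 21.9% to 25.8% lower and from 22.2% to 27.3% higher. At a difference of 0.20 the counts were 340 lower and 267 higher, and at 0.30 they were 147 and 119. The direction varied with the PSI level among events with at least 100 reads on each side. At a mean PSI of both sides from 0.1 to 0.3, 13.8% of 240 events were lower and 21.2% higher. From 0.3 to 0.7 the shares were 30.5% and 20.3%, and from 0.7 to 0.9 they were 19.1% and 9.28%. The excess of lower values was thus not found at every PSI level.

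**Figure D1:**
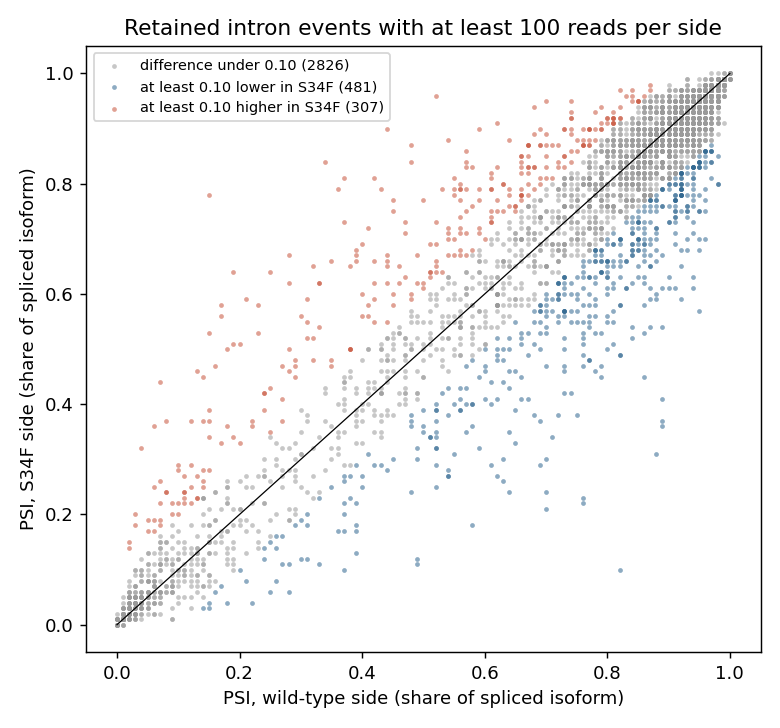
PSI of the 3614 retained intron events with at least 100 reads on each side, wild-type on the horizontal axis and S34F on the vertical axis, both as the share of the spliced isoform from 0 to 1. Each point is an event, the line marks equal values, and 481 points lie at least 0.10 below it and 307 at least 0.10 above it.

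The share of introns past 0.10 fell as the number of reads rose. Of the 970 members with 10 to 49 reads on the shallower side, 26.9% were lower and 25.7% higher, and of the 830 members with 1000 reads or more, 19 (2.29%) were lower and 17 (2.05%) higher. Introns with few reads also had a PSI nearer the middle of the scale, with medians of 0.38 in S34F and 0.37 in wild-type at 10 to 49 reads and 0.92 and 0.93 at 1000 or more. The excess of lower over higher values was therefore clearest between these ends. At 100 to 299 reads 20.4% were lower and 13.4% higher, and at 300 to 999 reads 13.1% and 7.69%. At the limit of 10 reads, the 51 members with exactly 10 reads on the shallower side included 9 lower and 13 higher, and the 72 entries with 9 reads, which were left out, included 15 and 18.

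The reads listed for an event were not particular to its intron. Over the 173 hosts with at least 3 separate introns of 100 or more reads and no other listed gene, the most reads in S34F exceeded the fewest by a median ratio of 1.06, and the ratio was at most 1.2 in 137 hosts. The reads were therefore not used to give a counting interval for a PSI. Wild-type had more reads than S34F, with a median ratio of 1.44. Across 1958 hosts the ratio of reads followed the ratio of FPKM in the dox+ libraries (Spearman rank correlation of 0.577) more closely than that in the dox- libraries (0.207), as a description over genes that share libraries.

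Very short listed introns went the other way. Of the 75 members under 20 bases with at least 100 reads on each side, 28.0% were higher and 14.7% lower in S34F, and of the 35 members of 20 to 59 bases 7 were higher and 2 lower. At 60 to 99 bases 18.3% of 684 were lower and 10.1% higher. Introns of 1000 bases or more had the smallest shares among the classes from 60 bases up, with 8.54% of 527 lower and 3.61% higher. Listed introns under 60 bases made up 167 of all members, and 118 of them were under 20 bases. The median length over members was 247.5 bases (quartiles 110 and 599), and the longest, 9182 bases, was in DROSHA, the nuclear microRNA processing enzyme.

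**Figure D2:**
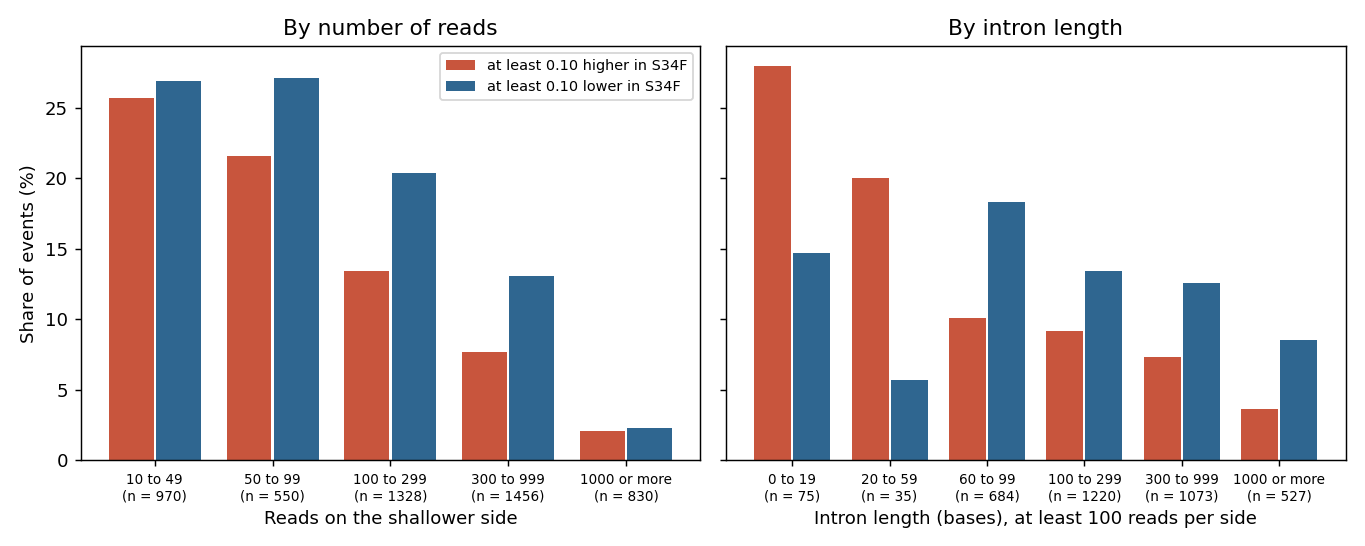
Share of retained intron events (%) with a PSI at least 0.10 higher (red) or lower (blue) in S34F, by reads on the shallower side (left, all members) and by listed intron length in bases (right, at least 100 reads on each side), with the number of events under each class. Both shares fall from over 25% at 10 to 49 reads to near 2% at 1000 or more, and higher values outnumber lower ones only in the length classes under 60 bases.

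Expression of the host moved with these shares. Of the events with at least 100 reads, those in hosts with a mean of 1 to 5 FPKM over the 9 libraries were lower in 28.1% and higher in 12.6%. For hosts of 5 to 20 FPKM the shares were 20.5% and 12.1%, for hosts of 20 to 100 FPKM 10.3% and 7.26%, and for hosts of 100 FPKM or more 2.38% and 2.55%. Lower values outnumbered higher ones in each class from 1 to 100 FPKM and not above it, nor among the 15 events in hosts below 1 FPKM, of which 1 was lower and 4 were higher. The 3510 events in protein-coding hosts were lower in 13.2% and higher in 8.38%, and the 58 in pseudogenes in 24.1% and 19.0%. Reads of pseudogenes can come from their parent genes, and those values are uncertain.

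The balance between lower and higher values differed among the types of event. With at least 100 reads on each side 13.3% of retained introns were lower and 8.49% higher, a ratio of 1.57. Of 27863 skipped exons 3069 were lower and 3348 higher, and alternative 3′ splice sites had 11.2% lower and 11.9% higher. Alternative 5′ splice sites leaned to lower values, with 11.1% and 9.05%, and NAGNAG acceptors, pairs of adjacent AG sites, to higher values, with 13.8% and 19.0%. Events of 1 type share genes and libraries and are not replicates, so that these gaps carry no test. PSI refers to another isoform in each type, and the types also differed in PSI level. With at least 100 reads, mean wild-type PSI was 0.71 for retained introns, 0.652 for alternative 5′ splice sites and 0.451 for skipped exons. It was 0.406 for alternative 3′ splice sites and 0.271 for NAGNAG acceptors. Whether the balance goes with the type or with the PSI level was not tested.

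**Figure D3:**
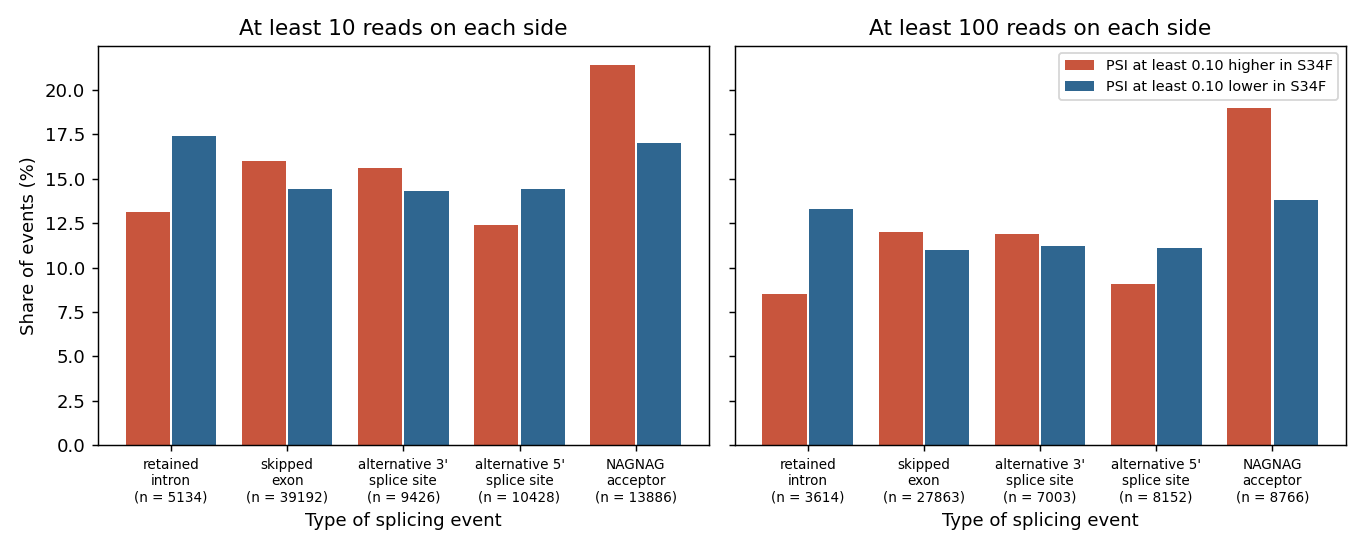
Share of events (%) with a PSI at least 0.10 higher (red) or lower (blue) in S34F for the 5 types of splicing event, at a minimum of 10 reads (left) and 100 reads (right) on each side, with the number of events under each type. Retained introns show 17.4% lower and 13.1% higher at 10 reads and 13.3% and 8.49% at 100 reads.

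In the largest decreases, by 1 PSI value per side, the unspliced isoform was the major one in S34F and the spliced isoform in wild-type. These introns are the extremes of 3614 events, and precursors can count as unspliced. An intron of 78 bases in DNAH11, which encodes an axonemal dynein heavy chain, had 0.10 as its PSI in S34F and 0.82 in wild-type, at chr7:21934423-21934502, with 356 and 527 reads. The kinase gene DYRK1B had an intron of 84 bases at chr19:40317507-40317592 with values of 0.31 and 0.88, and 104 and 117 reads. An intron of 712 bases in CRAMP1L, at chr16:1705937-1706650, had 0.22 and 0.76. In each of these 3 introns the spliced isoform was the major one only in wild-type.

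Similar values were found in genes with other roles. DNMT3B, a de novo DNA methyltransferase, had 0.23 in S34F and 0.76 in wild-type for an intron of 317 bases at chr20:31384675-31384993, with 100 and 122 reads. LMLN, a metallopeptidase gene, had 0.37 and 0.89 for an intron of 486 bases at chr3:197702982-197703469. DDX55, a DEAD-box RNA helicase, had 0.21 and 0.70 for 76 bases at chr12:124092070-124092147. By its PSI each was again mostly spliced in wild-type and mostly unspliced in S34F. The last among the 8 largest decreases were RHOT2, described with its other introns below, and ATP13A1, a transport ATPase of the endoplasmic reticulum, with 0.41 and 0.89 for 80 bases at chr19:19767575-19767656. Of these 8 introns, 5 were of 60 to 99 bases, a class that held 684 of the 3614 events with at least 100 reads. The largest increases, given below, also held introns of that class, in INO80B (80 bases), RP11-296I10.6 (89 bases) and NLRC5 (98 bases).

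The largest gains of splicing were of like size. TMEM106A, which encodes a transmembrane protein, had PSI values of 0.78 (S34F) and 0.15 (wild-type) for an intron of 144 bases at chr17:41365064-41365209, with 119 and 150 reads. DDX47, an RNA helicase of ribosomal RNA processing, had 0.90 and 0.44 for 1220 bases at chr12:12976253-12977474, with 457 and 1019 reads, and the table also lists APOLD1 there. By these values the unspliced isoform was the major one in wild-type and the spliced isoform in S34F for both introns.

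In 5 further increases the listed event was less simple in some cases. ANO9, of the anoctamin family, had 0.79 in S34F and 0.36 in wild-type for 733 bases at chr11:419729-420463. INO80B, a subunit of the INO80 chromatin remodelling complex, had 0.58 and 0.17 for 80 bases at chr2:74686689-74686770, where WBP1 is also listed. NLRC5, the transactivator of MHC class I genes, had 0.56 and 0.17 for 98 bases at chr16:57062115-57062214. A second NLRC5 event ended at the same 3′ splice site with a 5′ splice site farther upstream, 146 bases long, and had 0.69 and 0.52, so both events of this site were higher. In LTBP4, a TGF-beta binding protein, the listed intron at chr19:41123094-41123097 had only 2 bases, with 0.64 and 0.19, and RP11-296I10.6, with 0.84 and 0.34, is a pseudogene.

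**Figure D4:**
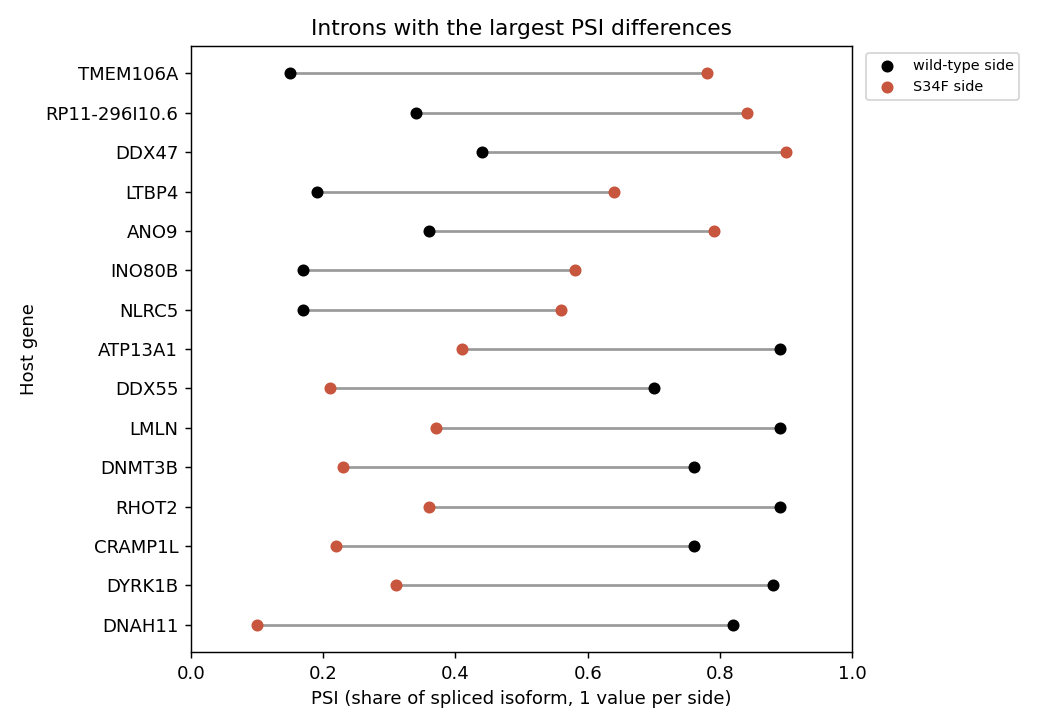
PSI on the S34F side (red) and the wild-type side (black) for 15 of the introns with the largest differences among events with at least 100 reads on each side, 1 per host gene, on a scale from 0 to 1. The upper 7 rise in S34F, from TMEM106A (0.15 to 0.78) to NLRC5, and the lower 8 fall, down to DNAH11 (0.82 to 0.10).

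Expression of these 15 hosts was read from the same lines. FPKM of DNAH11 was 3.82 and 6.23 in S34F dox+ and 6.40 and 2.36 in WT dox+, and the groups overlapped. TMEM106A had 4.06 and 6.29 in S34F dox+ and 3.71 and 2.99 in WT dox+, without overlap but with a limma-trend adjusted p of 0.794. LMLN had the largest fitted difference of the 15 hosts, with 7.06 and 10.45 against 6.01 and 4.85 FPKM, a log2 difference of 0.59 (SE 0.27) and an adjusted p of 0.751 from limma-trend. None of the 15 passed an adjusted p of 0.05 by limma-trend, and ATP13A1 alone had an unadjusted p below 0.05, at 0.0465, with 11.3 and 15.9 FPKM in S34F dox+ against 9.72 and 9.52 in WT dox+.

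Where a gene had several separate listed introns, they did not always move together. The 173 hosts with at least 3 such introns held 639 of them. The median difference of the host was below 0 in 99 hosts, above 0 in 50 and 0 in 24. At least 2 introns were lower by 0.10 or more in 22 hosts, at least 2 were higher in 12, and 23 hosts had both a lower and a higher intron.

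Genes with at least 3 introns past 0.10 in 1 direction were looked up after the values had been seen. RHOT2, a mitochondrial GTPase that ties mitochondria to the transport machinery, had 9 separate listed introns, of which 8 were below wild-type in S34F. In transcript order the PSI in S34F and wild-type was 0.82 and 0.92 for the first, 0.87 and 0.76 for the second, 0.79 and 0.90 for the third, 0.80 and 0.86 for the fourth and 0.36 and 0.89 for the fifth. For the sixth to the ninth it was 0.18 and 0.58, 0.81 and 0.86, 0.79 and 0.85, and 0.50 and 0.80. The fifth, of 73 bases at chr16:720175-720249, and the sixth, of 82 bases at chr16:721000-721083, thus showed the widest gaps, between listed neighbours with gaps of 0.06 and 0.05. A longer form of the fifth intron, of 90 bases from the same 5′ splice site, had 0.36 in S34F and 0.22 in wild-type, the opposite direction. RHOT2 itself was at 15.0 and 18.5 FPKM in S34F dox+ and 13.6 and 16.2 in WT dox+.

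Only introns listed as events are covered, not every intron of a gene. The 3 listed introns of DENND4B, which encodes an activator of Rab GTPases, were lower, with 0.66, 0.62 and 0.75 in S34F against 0.88, 0.78 and 0.88 in wild-type. In ALS2CL 4 of 5 listed introns were lower by 0.12 to 0.25, and the last of the 5 in transcript order was at 0.77 and 0.74. In KRI1, a ribosome biogenesis gene, 3 of 4 listed introns were lower by 0.10 to 0.13, and the second of the 4 was at 0.95 and 0.98. PIDD, a gene of the p53 response, was mixed, with 3 of its 6 separate listed introns higher and 1 lower. One of the higher introns, of 105 bases with 0.22 in S34F and 0.12 in wild-type, had a shorter form of 72 bases from the same 3′ splice site that went the other way, at 0.32 and 0.52.

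**Figure D5:**
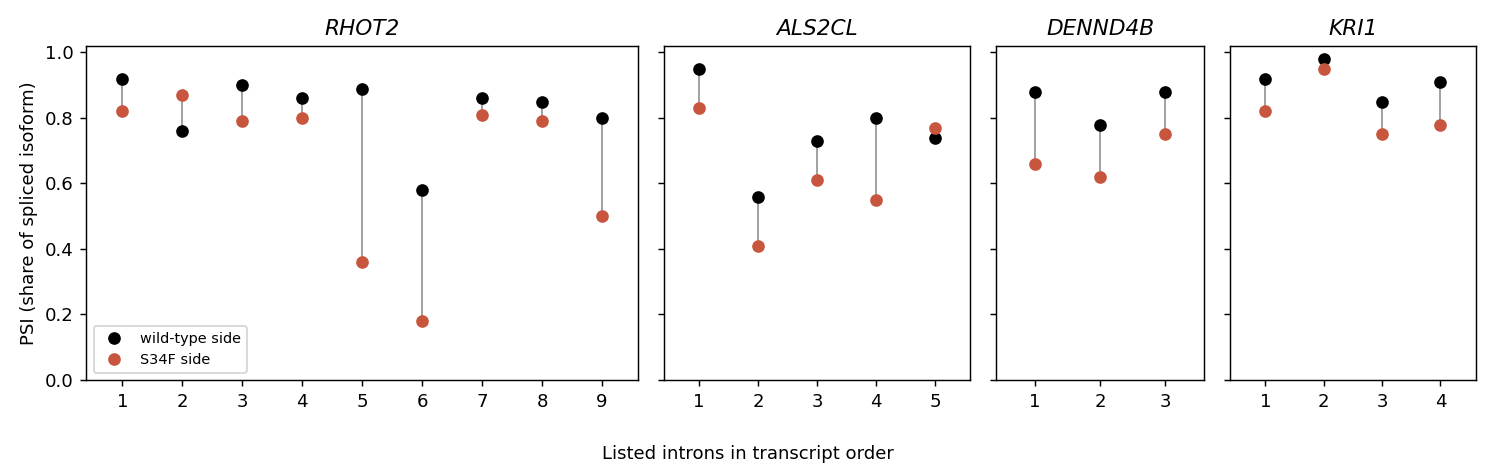
PSI of the separate listed introns of RHOT2, ALS2CL, DENND4B and KRI1 with at least 100 reads on each side, numbered in transcript order, on the S34F side (red) and the wild-type side (black). The S34F value lies below the wild-type value in all introns drawn but the second of RHOT2 and the last of ALS2CL, and the gaps within RHOT2 run from 0.05 to 0.53.

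Splicing regulators held introns of middle PSI, and those past 0.10 went both ways. Of the 22 SR protein and SR kinase genes in the list, 15 had 27 events, with median PSI values of 0.68 (S34F) and 0.67 (wild-type). Of these events 4 (14.8%) were lower and 2 (7.41%) higher, beside 17.4% and 13.1% over all members. The list had more reads, with medians of 1105 (S34F) and 1562 (wild-type) against 236.5 and 340 over all members. Members with 300 to 999 reads on the shallower side were lower in 13.1% and higher in 7.69%, and those with 1000 or more in 2.29% and 2.05%. SRSF5 had 2 lower introns, of 285 bases with 0.73 and 0.83 and of 1215 bases with 0.27 and 0.38. Among the CLK kinases, which phosphorylate SR proteins, introns of CLK3 (0.43 in S34F and 0.57 in wild-type) and CLK1 (0.68 and 0.78) were lower, and an intron of CLK4 was higher (0.68 and 0.56). SRSF2 had a higher intron of 498 bases, at 0.50 and 0.38, with 2187 and 3260 reads. FPKM of SRSF2 was 104 and 114 in S34F dox+ and 108 and 112 in WT dox+, and the groups overlapped.

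In hnRNP genes, whose products bind nascent transcripts, differences were small but mostly of 1 sign. Of 21 events in 10 hosts, 17 were below 0, 2 above 0 and 2 at 0, with a median difference of -0.02, and none passed 0.10. Their median reads were 3383 (S34F) and 5429 (wild-type). Of all members with 1000 reads or more on the shallower side, 2.29% were lower and 2.05% higher. An intron of PTBP1 of 83 bases had 0.82 in S34F and 0.88 in wild-type, and one of HNRNPAB had 0.58 and 0.65. HNRNPH1 had 9 of the 21 events, several of which share a splice site, so that the count does not rest on separate introns. Over all members 2523 were below 0, 2111 above and 500 at 0.

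Of 43 events in 26 hosts of the spliceosome list, 4 (9.30%) were higher and 1 (2.33%) was lower. Over all members the shares were 13.1% and 17.4%, but median reads were 452 (S34F) and 779 (wild-type) in the list and 236.5 and 340 over all members. Members with 300 to 999 reads on the shallower side were higher in 7.69% and lower in 13.1%. PRPF4, a component of the U4/U6 snRNP, had the widest gap, with 0.84 in S34F and 0.57 in wild-type for an intron of 111 bases at chr9:116052868-116052980 with 345 and 508 reads. PRPF40B (0.74 and 0.61), RBM5 (0.78 and 0.67) and PRPF4B (0.68 and 0.58) were also higher, and PRPF38B was lower (0.55 and 0.65). The intron listed for U2AF1 itself read as almost always spliced, at 0.98 and 0.99. The tagged copies of U2AF1 were built from cDNA, which holds no introns, so their reads can count as spliced. Splicing of this intron in the endogenous transcripts alone was not tested. The 6 events in nonsense-mediated decay genes all stayed within 0.10. Of the 10 events in genes known for regulated retention, 1 was higher and 1 lower, which are the CLK4 and CLK1 introns given above. OGT, whose product adds sugar residues to nuclear proteins, had an intron of 3271 bases that was mostly retained, at 0.12 and 0.10.

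Genes with very high expression showed close to equal values. Cytosolic ribosomal protein genes had 78 events in 35 hosts with a median PSI of 0.97 on both sides, and 1 event passed 0.10, an intron of RPL10 that was higher at 0.77 and 0.66. RPL10 has many processed pseudogenes, and its reads are uncertain. The snoRNA host genes, whose introns carry small nucleolar RNAs, had 59 events, and 1 was higher, in EIF4A1, at 0.14 and 0.02. Transcripts of GAS5, another snoRNA host, held 10 events with a PSI from 0.14 to 0.86 in S34F, and none of them differed by 0.10. Over all members 17.4% were lower and 13.1% higher, but both lists had more reads. Median reads in S34F were 3739.5 for ribosomal protein genes and 1164 for snoRNA hosts, against 236.5 over all members. Members with 1000 reads or more on the shallower side were lower in 2.29% and higher in 2.05%. Whether the small differences go beyond the number of reads was not tested.

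Of 19 events in 11 hosts of the EMT and epithelial list, 4 (21.1%) were higher and none was lower, beside 13.1% and 17.4% over all members, and the other 15 were within 0.10. With so few events the list is described by its counts alone. IL32, a cytokine gene, had an intron of 138 bases at chr16:3117416-3117555 with 0.92 in S34F and 0.81 in wild-type, and 543 and 350 reads. ESRP2, a splicing regulator of epithelial cells, had 0.91 and 0.79, but for a listed intron of 43 bases. KRT8, a keratin of simple epithelia, had 0.37 and 0.14 for an event of 1180 bases that encloses 2 further listed introns and an exon. That event had 217 and 417 reads, while the enclosed introns had 35786 or more and a PSI of 0.98 and 0.99 on both sides. Introns of the mesenchymal genes VIM (0.99 on both sides) and FN1 (0.76 to 0.96 in S34F and 0.79 to 0.97 in wild-type) stayed within 0.10.

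Host gene expression was compared between S34F dox+ and WT dox+ with limma-trend on log2(FPKM + 1), over the 15179 genes whose mean reached 1 FPKM. Of the 2914 hosts 2603 could be tested, and 1 had an adjusted p below 0.05, against 0.0527% of all genes tested. It was IL32, at 108 and 106 FPKM in S34F dox+ and 44.3 and 48.6 in WT dox+, a log2 difference of 1.19 (SE 0.13, adjusted p = 0.0431 from limma-trend). The S34F line was as high without doxycycline, at 107 FPKM in its 1 library against 45.3 and 49.4 in WT dox- (adjusted p = 0.131 from limma-trend), and the contrast of the doxycycline responses was 0.03 (SE 0.21, adjusted p = 1 from limma-trend). PSI values of the dox- libraries were not analysed here. The adjusted p of IL32 ranged from 0.0313 to 0.267 over the alternatives tried. At an unadjusted p below 0.05, 191 hosts (7.34%) were called, close to the 6.78% of all genes.

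Hosts of introns that were more spliced and hosts of introns that were less spliced in S34F had about the same expression difference. The log2 difference had a median of 0.06 over 340 tested hosts with higher events alone and 0.07 over 509 with lower events alone, beside 0.06 over 108 hosts with both, 0.01 over 1646 hosts with neither and 0.03 over all genes. Positive differences made up 57.6% of the hosts of higher events, 60.1% of the hosts of lower events and 54.9% of all genes. Without S34F dox+ replicate 2, the library with the most genes detected, both medians were below 0, at -0.02. WT dox+ against WT dox- gave medians of 0.05 for both sets of hosts, and S34F dox- against WT dox- gave -0.02 and 0.01.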

How the data were processed

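Total RNA of 9 HCC78 libraries was sequenced by the authors and aligned with STAR 2.3.0, and RSEM 1.2.29 gave the deposited FPKM and TPM values per gene (GRCh37/hg19, per the submitters' processing notes). The authors compared S34F with wild-type transduced cells using MISO and deposited PSI as a fraction and supporting reads as counts for 5 types of event. How replicates were combined and whether doxycycline was present are not given in the table. Its columns of PSI difference and Bayes factor are the authors' own comparison and were not used. Differences were computed here from the PSI of each side. Some events of the alternative 3′ and 5′ splice site tables list several isoforms, and the authors' deposited PSI and other values of these 2220 events were left out.

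Duplicate event names were counted once. The host of an event was the listed protein-coding gene with the highest mean FPKM, or the highest of any type. Genes whose mean over the 9 libraries reached 1 FPKM entered limma-trend (limma 3.58.1, R 4.3.3) as log2(FPKM + 1), all 5 groups together, and two-sided p-values were adjusted by Benjamini-Hochberg over all genes. No counts per gene were used, so depth per library is unknown, and where nothing says that replicates came from separate cultures, p-values measure the spread between these libraries. The contrast was run on simulated data with planted changes larger than any log2 difference reported here, so that run does not measure power at the reported sizes. The introns named are the 8 largest increases and 8 largest decreases among events with at least 100 reads on each side, 1 per host, events past 0.10 in listed genes, and any host with an adjusted p below 0.05. Members and lists were chosen with earlier results of these data known. Alternatives covered read minimums, the threshold, hosts, FPKM minimums, scaling, TPM, a replicate block and each replicate left out. Some events that meet this rule are not reported here. Splice site letters and 2 iCLIP samples were not analysed here.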

Additional observations from a re-analysis of the deposited data

How the results depend on the processing

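Higher values were fewer than lower ones under every alternative tried. With at least 100 reads on each side 307 events were higher and 481 lower, at a threshold of 0.05 there were 1164 and 1482, at 0.20 there were 267 and 340, and with 1 event per host gene 325 and 517. A minimum of 20 reads, 10 reads summed over both sides, protein-coding hosts only and, added after seeing the data, introns of at least 60 bases kept both counts within 1.5 times. The median PSI difference was -0.01, in place of 0, with 1 event per host gene and among events with a PSI from 0.05 to 0.95 on at least 1 side. No retained intron event listed several isoforms.

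The count of 1 host called was 0 with a pseudocount of 0.1, no minimum FPKM, TPM in place of FPKM, the replicate block, or only the 4 dox+ libraries. Without any 1 of the dox+ replicates it was also 0, from 0 to 0 over the 4. By unadjusted p below 0.05, 191 hosts passed as reported. Medians of log2 differences turned with TPM, to -0.0465 for hosts of higher events and -0.0354 for hosts of lower events, beside -0.0744 for all genes. With each dox+ replicate left out they ran from -0.0177 to 0.12 and from -0.0186 to 0.126, and were negative only without S34F dox+ replicate 2. The replicate block left the medians at 0.0608 and 0.0721. Deviations of same-numbered S34F dox+ and WT dox+ libraries had a correlation of 0.0374 over genes, so the numbers were not taken as pairs. No paired analysis of PSI was possible because there is 1 value per side. The PSI values carry no replicate error, and no counting interval could be given.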
